A study of Mus musculus with 8 samples.

Results

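The genes described here are the 3 components of the lipopolysaccharide (LPS) receptor complex, Tlr4, Cd14 and Ly96, and the Toll-like receptor genes Tlr1, Tlr2, Tlr3, Tlr6, Tlr7, Tlr9 and Tlr13. They were chosen by gene symbol, which found 10 rows among the 55487 genes listed, and each symbol matched 1 row. RNA was sequenced from J774A.1 cells, a mouse macrophage line, after 24 h with LPS (1 μg/mL) in 4 libraries or with LPS (1 μg/mL) and ursodeoxycholic acid (UDCA, 1 mM) in another 4. UDCA is a secondary bile acid, and LPS is an outer membrane component of Gram-negative bacteria. Both groups carried LPS, so the comparison asks how UDCA changed expression under LPS. Cells that had no LPS were not analysed here, and all libraries come from the same cell line, which limits them as a model of macrophages in tissue.

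Toll-like receptors (TLRs) are membrane proteins that bind microbial molecules through an outer repeat domain and signal through an inner TIR domain. CD14 picks up LPS and hands it to MD-2, the product of Ly96, which sits on TLR4 and brings the receptors together as a pair. TLR2 acts as a pair with TLR1 or TLR6 at the cell surface and binds bacterial lipopeptides. TLR3, TLR7, TLR9 and TLR13 reside in endosomes and bind nucleic acids. Most TLRs signal through the adaptor MyD88, TLR3 uses TRIF, and TLR4 uses both. Macrophages are rich in these receptors and are a main source of the cytokines that follow their activation.

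Expression is given in TPM, in which reads per gene are divided by gene length and scaled to a common total per library, so that levels can be compared between genes. TPM summed to between 958918 and 977485 per library, and the number of reads behind it is unknown, so the error given is the spread between libraries. Nothing in the labels says that the 4 libraries of a group came from separate experiments, and the p-values measure only the spread between these libraries. Fold changes are on the log2(TPM + 1) scale, LPS + UDCA over LPS, where the pseudocount shrinks changes at low levels. Of 10 macrophage markers, all 10 were tested, and 4 were called lower and 2 higher with UDCA, where 8.44% and 8.71% of all genes tested were. The summed level of those markers ran from 4115 to 4335 TPM under LPS and from 2036 to 2281 TPM under LPS + UDCA, and none was at 0. Itgam, which encodes the CD11b integrin, had the lowest log2 fold change of them (-2.91), followed by Lyz2 (-2.19), Cd68 (-1.39) and Csf1r (-1.35), while Fcgr1 (1.48) and Adgre1 (1.27) rose. All 16 markers of other cell types were under 1 TPM in every library and 5 were at 0 throughout, among them Epcam and Cd3e. Their sum was 1.05 to 1.32 TPM under LPS and 0.09 to 0.61 TPM under LPS + UDCA. The part of the marker changes in the results on the receptors was not tested.

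UDCA changed the LPS receptor and TLR genes in opposite directions. Tlr2 and Tlr13 were called lower, and Ly96 and Tlr6 were called higher by limma, which fits each gene and shares the spread across genes. A call required TPM + 1 to differ 2-fold or more, with a false discovery rate (FDR) below 0.05. The test took in 9 of the 10 genes, those whose mean reached 1 TPM. Of these, 2 were thus called higher and 2 lower, where 8.71% of the 11796 genes tested were called higher, 8.44% lower and 17.1% either way. Without the minimum on the fold change, 5 of the 9 were higher (Tlr4, Ly96, Tlr1, Tlr6 and Tlr9) and 3 lower (Cd14, Tlr2 and Tlr13), where 40.2% and 32.3% of all genes tested were. These 8 of 9 stand beside 72.5% of all genes tested past the FDR in either direction, so passing it did not mark the receptors out. In 8 of the 9 genes, 5 higher and 3 lower, every library of 1 group lay above every library of the other, as in 66.8% of all genes tested (37% higher and 29.9% lower). Over the 9 genes the log2 fold change had a median of 0.23, and over all genes tested of 0.082. Tlr7 did not pass, and Tlr3 fell under the minimum level and was not tested. In bulk RNA, fewer cells that express a gene and less RNA per cell cannot be told apart.

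**Figure D1:**
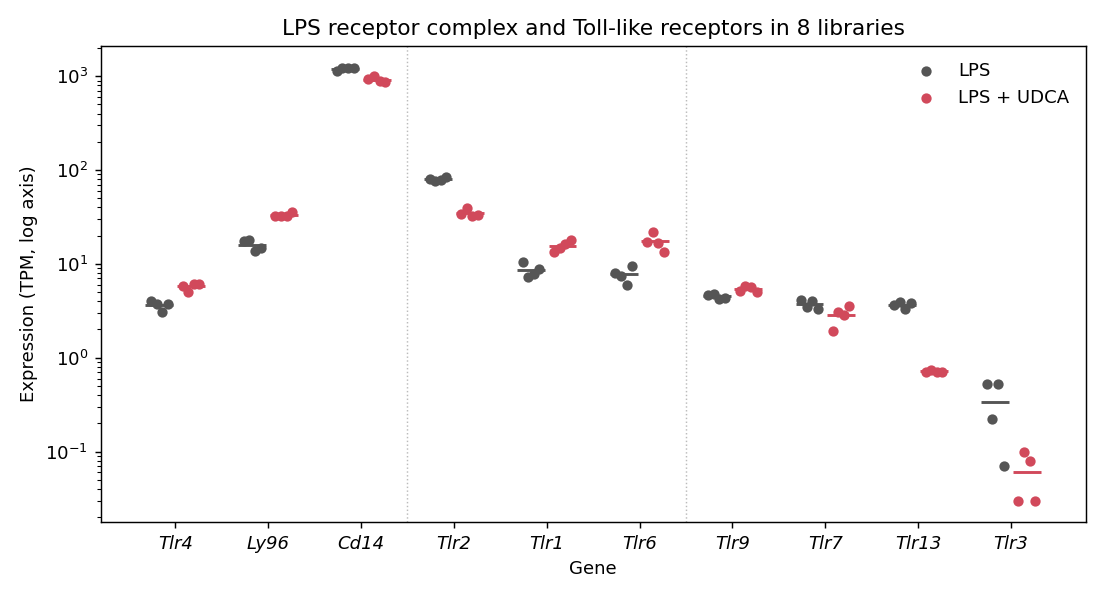
TPM of the 10 genes (log axis) in each library, with LPS in grey and LPS + UDCA in red, points for libraries and bars for group means (n = 4). Tlr2, Tlr13 and Cd14 lie lower with UDCA in every library and Tlr4, Ly96, Tlr1, Tlr6 and Tlr9 higher, whereas the groups overlap for Tlr7 and Tlr3.

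In the LPS receptor complex, transcripts of the signaling receptor and its LPS-binding partner rose while those of the co-receptor fell. Receptor protein and its level at the cell surface were not measured in these libraries. Tlr4 lies on chromosome 4 from 66827584 to 66930284 (plus strand) of GRCm38, the build named in the submitters' processing notes. It had 4.04, 3.72, 3.06 and 3.76 TPM in the LPS libraries and 5.74, 5.06, 6.11 and 6.12 TPM in the LPS + UDCA libraries. All 4 UDCA libraries lay above all 4 LPS libraries. The means were 3.65 ± 0.415 and 5.76 ± 0.497 TPM (SD, n = 4), a log2 fold change of 0.54 (standard error, SE, 0.096, limma adjusted p = 0.00072).

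Ly96, on chromosome 1 from 16688051 to 16709611 (plus strand), encodes MD-2, without which TLR4 does not respond to LPS. It had 17.45, 17.87, 13.82 and 14.94 TPM under LPS and 32.60, 32.72, 32.45 and 35.34 TPM under LPS + UDCA. The lowest UDCA library was thus well above the highest LPS library, and the means, 16.0 ± 1.96 and 33.3 ± 1.38 TPM, stood in a ratio of 2.08. The log2 fold change was 1.02 (SE 0.082, limma adjusted p = 4.1e-06), just past the minimum. It was under that minimum but past the FDR with median-of-ratios scaling (0.91), with quantile normalization (0.97) and without LPS replicate 3 (0.95), LPS replicate 4 (0.99) or LPS + UDCA replicate 4 (0.99).

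Cd14, on chromosome 18 from 36725067 to 36726798 (minus strand), encodes the LPS co-receptor and had the highest level of the 10 genes. Its TPM was 1139.98, 1230.49, 1236.18 and 1213.93 with LPS and 937.70, 994.83, 893.74 and 860.07 with LPS + UDCA. Every UDCA library was lower, and the log2 fold change was -0.39 (SE 0.048, limma adjusted p = 6.7e-05). Cd14 made up 89.5% to 91.1% of the summed TPM of the 10 genes with LPS and 88.2% to 89.5% with LPS + UDCA.

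Ratios of TPM within a library do not change when all its values are multiplied by a constant, and they are given as a description. There were 282, 331, 404 and 323 Cd14 transcripts per Tlr4 transcript in the LPS libraries and 163, 197, 146 and 141 in the LPS + UDCA libraries. For Ly96 per Tlr4, the ratio was 4.32, 4.8, 4.52 and 3.97 with LPS and 5.68, 6.47, 5.31 and 5.77 with LPS + UDCA. The groups did not overlap in either ratio. Relative to Tlr4, Cd14 thus had a lower transcript level with UDCA and Ly96 a higher one.

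Among the TLRs of the surface, Tlr2 fell and its partners Tlr1 and Tlr6 rose. Tlr2, on chromosome 3 from 83836272 to 83841767 (minus strand), was the most expressed TLR in these cells. It had 80.24, 76.93, 78.43 and 83.59 TPM under LPS and 33.78, 39.23, 32.35 and 33.30 TPM under LPS + UDCA. The groups were far apart, and the means of 79.8 ± 2.87 and 34.7 ± 3.10 TPM gave a log2 fold change of -1.18 (SE 0.063, limma adjusted p = 2.9e-07). Of the 11796 genes tested, 765 had a lower log2 fold change.

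Tlr1 and Tlr6 are neighbours on chromosome 5, from 64924679 to 64933563 and from 64952031 to 64960097 on the minus strand, with 18467 bases between them. Tlr6 had 8.06, 7.41, 6.0 and 9.48 TPM under LPS and 17.21, 22.13, 16.65 and 13.42 TPM under LPS + UDCA. All UDCA libraries were higher, with a wider spread than in the LPS group (log2 fold change 1.07, SE 0.16, limma adjusted p = 0.00023). It too was under the minimum but past the FDR with median-of-ratios scaling (0.97), with quantile normalization (0.99) and without LPS replicate 3 (0.96) or LPS + UDCA replicate 2 (0.95). Tlr1 had 10.54, 7.33, 7.81 and 8.88 TPM under LPS and 13.27, 14.73, 16.15 and 17.84 TPM under LPS + UDCA. It rose by less than 2-fold (log2 fold change 0.78, SE 0.12, limma adjusted p = 0.00029).

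The transcripts of Tlr1 and Tlr6 are alike, and 20% of the 31-base words of Tlr1 and 16.6% of those of Tlr6 occur in another gene, most of them in each other. How the authors' counting split such reads is not given in the sources used here, so the level of either gene alone is less certain than their sum. The sum of Tlr1 and Tlr6 was 18.6, 14.7, 13.8 and 18.4 TPM under LPS and 30.5, 36.9, 32.8 and 31.3 TPM under LPS + UDCA. The sum too was higher in every UDCA library. The ratio of Tlr1 to Tlr6 ran from 0.937 to 1.31 with LPS and from 0.666 to 1.33 with LPS + UDCA, and the groups overlapped.

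In transcript level, Tlr2 went from an excess over its partners to about equal levels. Its TPM divided by the sum of Tlr1 and Tlr6 was 4.31, 5.22, 5.68 and 4.55 with LPS and 1.11, 1.06, 0.986 and 1.07 with LPS + UDCA, a ratio chosen after the values were seen. Against Tlr4, Tlr2 stood at 19.9, 20.7, 25.6 and 22.2 with LPS and at 5.89, 7.75, 5.29 and 5.44 with LPS + UDCA. Both ratios were lower in all UDCA libraries.

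**Figure D2:**
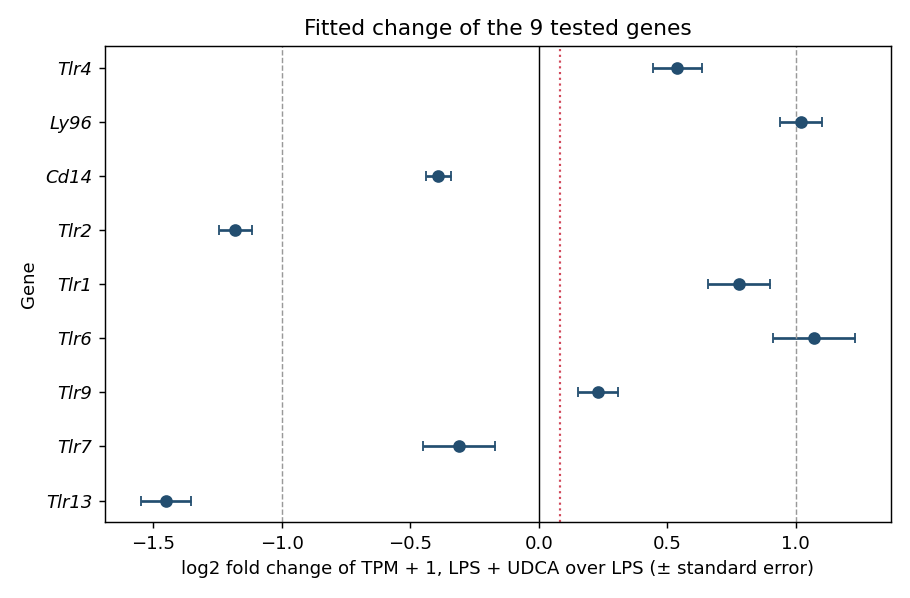
Log2 fold change of TPM + 1, LPS + UDCA over LPS, for the 9 tested genes, with bars for the standard error from limma, dashed lines at a fold change of 2 and a dotted line at the median of all genes tested (0.082). Tlr2 and Tlr13 lie past the lower dashed line, while Ly96 and Tlr6 lie just past the upper one and within their standard error of it.

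The sequences upstream of Tlr2, Tlr1 and Tlr6 are shown because these genes encode partners in the same receptors and moved in opposite directions. They are from RefSeq promoter windows of GRCm38.p6, which held 6 of the 10 genes, cut back to the bases upstream of every annotated exon of the gene. Capitals mark matches to the κB consensus or to GAGGAAG, the core bound by PU.1 and other ETS factors. The search covered the κB consensus, GAGGAAG, the interferon-stimulated response element (ISRE) core and TGANTCA on both strands, chosen after the sequences were seen.
Tlr2 upstream, chr3:83841768-83841858, minus strand: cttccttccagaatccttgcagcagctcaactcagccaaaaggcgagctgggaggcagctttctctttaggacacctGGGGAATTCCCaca
Tlr1 upstream, chr5:64933564-64933808, minus strand: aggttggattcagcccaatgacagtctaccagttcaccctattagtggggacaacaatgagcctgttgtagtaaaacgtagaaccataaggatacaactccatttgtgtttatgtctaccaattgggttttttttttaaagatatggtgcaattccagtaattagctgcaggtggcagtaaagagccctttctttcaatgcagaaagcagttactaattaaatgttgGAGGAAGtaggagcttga
Tlr6 upstream, chr5:64960098-64960298, minus strand: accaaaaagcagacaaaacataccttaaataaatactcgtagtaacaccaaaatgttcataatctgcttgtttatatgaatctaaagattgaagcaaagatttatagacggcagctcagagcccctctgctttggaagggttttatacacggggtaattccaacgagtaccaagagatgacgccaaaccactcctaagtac
The Tlr2 stretch holds 2 overlapping matches to the κB consensus, which 8.46% of all 32851 windows of 300 bases hold, and no match to the other motifs. The stretches of Tlr2, Tlr1 and Tlr6, at 91, 245 and 201 bases, are shorter than those windows. The RefSeq window of Tlr3, which lies within the annotated gene and is not shown, also holds the κB consensus. The Tlr1 stretch holds GAGGAAG, present in 13.6% of the windows, and the Tlr6 stretch holds none of the 4 motifs. The other RefSeq window of Tlr6, chr5:64959117-64959416, which lies within the annotated gene and is not shown, holds the ISRE core, as do 3.44% of the windows. These matches are a description of letters, and binding was not measured in these libraries.

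Of the endosomal TLRs, Tlr13 fell, with the lowest log2 fold change of the 9 genes tested, and the values of Tlr9 and Tlr7 differed less between the groups. Tlr13, on chromosome X from 106143204 to 106160493 (plus strand), encodes a receptor for bacterial ribosomal RNA that mice have and humans lack. It had 3.62, 3.93, 3.30 and 3.86 TPM under LPS and 0.70, 0.74, 0.71 and 0.71 TPM under LPS + UDCA. The UDCA libraries lay close together, far under the LPS libraries, and the mean TPM was 5.14-fold lower. The log2 fold change of -1.45 (SE 0.099, limma adjusted p = 1.4e-06) understates this because the level is low, and 466 of the genes tested had a lower one. Every UDCA library was under 1 TPM, so Tlr13 reached the minimum level for testing only through the LPS libraries. It was not tested when 1 TPM was required in every library. The stretch upstream of Tlr13 is shown because this gene had the lowest log2 fold change, with capitals for GAGGAAG, the only motif of the 4 found in it.
Tlr13 upstream, chrX:106143025-106143203, plus strand: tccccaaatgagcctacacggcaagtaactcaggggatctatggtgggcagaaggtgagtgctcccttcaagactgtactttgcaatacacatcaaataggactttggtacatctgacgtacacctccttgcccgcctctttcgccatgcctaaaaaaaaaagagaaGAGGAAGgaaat

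Tlr9, on chromosome 9 from 106222598 to 106226883 (plus strand), encodes the receptor for unmethylated CpG DNA. It had 4.61, 4.8, 4.27 and 4.34 TPM under LPS and 5.18, 5.88, 5.71 and 5.06 TPM under LPS + UDCA. The groups did not overlap, but the difference was small (log2 fold change 0.23, SE 0.078, limma adjusted p = 0.024) and under the fold change minimum. It no longer passed the FDR in 8 alternatives, among them those without LPS replicate 3 (0.21), LPS replicate 4 (0.21), LPS + UDCA replicate 2 (0.20) or LPS + UDCA replicate 3 (0.21). Over all alternatives, the adjusted p of Tlr9 from limma ran from 0.0087 to 0.15. Its RefSeq window also holds GAGGAAG, as well as TGANTCA, which 7.81% of all windows hold.

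Tlr7, on chromosome X from 167304929 to 167330558 (minus strand), encodes a receptor for single-stranded RNA. It had 4.14, 3.45, 4.05 and 3.27 TPM under LPS and 1.93, 3.10, 2.83 and 3.52 TPM under LPS + UDCA. The groups overlapped through LPS + UDCA replicate 4, the highest of its group, and the log2 fold change of -0.31 did not pass (SE 0.14, limma adjusted p = 0.077). Without that library it was -0.40 (limma adjusted p = 0.038), and both scalings also brought it past the FDR. Whether Tlr7 passed the FDR thus depends on the setting.

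Tlr3, on chromosome 8 from 45395665 to 45411080 (minus strand), encodes the receptor for double-stranded RNA and was barely detected. It was listed at 0.53, 0.22, 0.52 and 0.07 TPM under LPS and at 0.03, 0.10, 0.08 and 0.03 TPM under LPS + UDCA. The highest UDCA value exceeded the lowest LPS value (2-sided exact permutation test on log2(TPM + 1), p = 0.086, where the smallest p the design allows is 0.029). With the wide spread under LPS, and levels of 0.10 TPM or less under LPS + UDCA stored to 2 decimals, no difference could be shown. The antisense gene Gm45542, whose exons overlap Tlr3, was listed at 0 in all 8 libraries.

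The other TLR genes of the mouse, Tlr5, Tlr8, Tlr11 and Tlr12, were at or near 0. Tlr11 and Tlr12 were listed at 0 in every library. Tlr5 and Tlr8 were listed at 0.02 TPM in 1 LPS library each and at 0 in the rest.

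The order of the levels changed below Cd14. With LPS the order was Cd14, Tlr2, Ly96, Tlr1, Tlr6, Tlr9, Tlr7, Tlr13, Tlr4 and Tlr3, and the ranges overlapped between Tlr1 and Tlr6, between Tlr7 and Tlr13 and between Tlr13 and Tlr4. With LPS + UDCA it was Cd14, Tlr2, Ly96, Tlr6, Tlr1, Tlr4, Tlr9, Tlr7, Tlr13 and Tlr3, and the ranges overlapped between Tlr2 and Ly96, between Tlr6 and Tlr1 and between Tlr4 and Tlr9. Thus Tlr2 and Ly96 had come to about the same level, as Tlr2 fell and Ly96 rose, and Tlr4 stood above Tlr7 and Tlr13.

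The summed TPM of the 8 TLR genes was 116, 108, 107 and 117 with LPS and 77.8, 91.0, 80.6 and 80.0 with LPS + UDCA. Tlr2 held 69.3% to 73.0% of it with LPS and 40.1% to 43.4% with LPS + UDCA. The share of Tlr6 was 5.58% to 8.09% and 16.8% to 24.3%, and that of Tlr1 6.80% to 9.10% and 16.2% to 22.3%. For Tlr4 the share was 2.85% to 3.49% with LPS and 5.56% to 7.65% with LPS + UDCA. The fall of the sum was thus carried by Tlr2, and the make-up of the TLR transcripts was more even with UDCA. These shares were chosen after the values were seen and are given with no test.

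**Figure D3:**
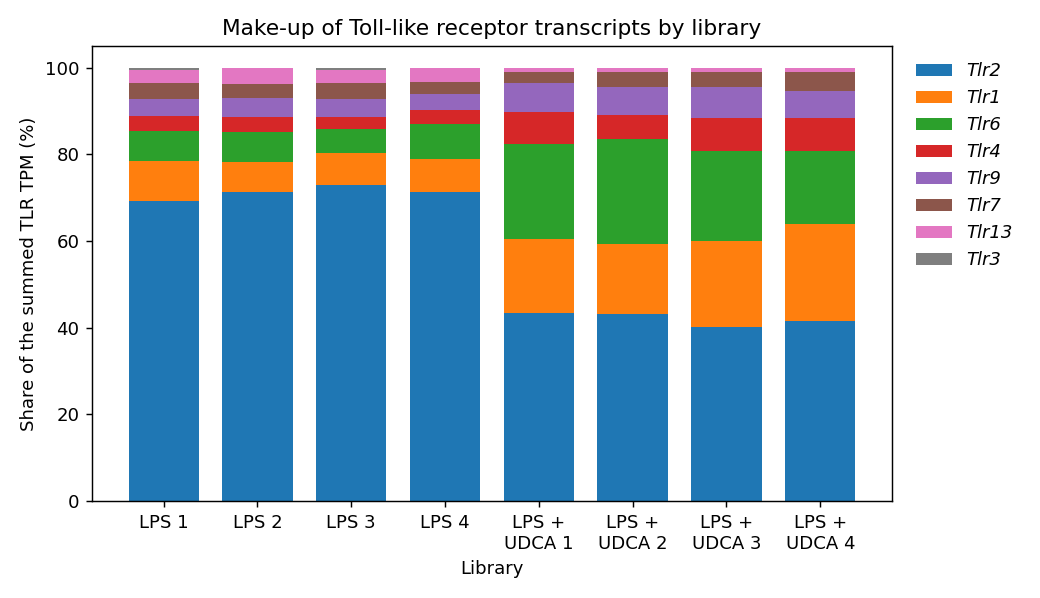
Share of each of the 8 TLR genes in their summed TPM (percent) for each library, stacked to 100%. Tlr2 takes 69.3% to 73.0% of the bar in the LPS libraries and 40.1% to 43.4% in the LPS + UDCA libraries, where Tlr1, Tlr6 and Tlr4 take more.

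Genes with the profile nearest to those of the LPS receptor complex were sought among the 7072 genes whose mean reached 10 TPM, by the Euclidean distance over the 8 libraries of log2(TPM + 1) centred on the LPS mean. The nearest to Cd14 were Tyrobp, which encodes the signaling adaptor DAP12 (distance 0.0756), Cox8a (0.0780) and Cd74, the invariant chain of MHC class II (0.0880). For Tlr4 they were Eif2s3y (0.114), Actr2 (0.163) and Rbm7 (0.170), and for Ly96 they were Ppp1r12a (0.173), Phf6 (0.185) and Pias1 (0.188). The distance describes likeness over 2 groups of libraries only.

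Of the TIR adaptor genes, whose products bind the inner domain of the TLRs, Ticam1, Ticam2 and Pik3ap1 rose and Myd88 and Tirap fell. Ticam1 and Ticam2 encode TRIF and TRAM, the adaptors of the branch that TLR4 uses from endosomes, and both rose. Ticam2 had 6.90, 6.62, 6.06 and 8.07 TPM under LPS and 20.15, 21.17, 20.05 and 19.48 TPM under LPS + UDCA. The UDCA libraries were all higher (log2 fold change 1.43, SE 0.080, limma adjusted p = 4.2e-07). Exons of Tmed7 overlap Ticam2 on the same strand and 15.8% of the 31-base words of Ticam2 occur in other genes. Tmed7 had means of 51.2 and 63.8 TPM (log2 fold change 0.31), and the part of shared reads in the values of Ticam2 was not tested. Ticam1 rose from 29.6 ± 0.896 to 44.1 ± 1.22 TPM (SD, n = 4; log2 fold change 0.56).

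Myd88 and Tirap, which encode the adaptors of the other branch of TLR4, fell by less than 2-fold. Myd88 had 46.6 ± 1.6 TPM under LPS and 37.5 ± 2.34 TPM under LPS + UDCA (log2 fold change -0.31, limma adjusted p = 0.00061). Tirap had 10.2 ± 1.17 and 7.02 ± 0.607 TPM (log2 fold change -0.47, limma adjusted p = 0.0014). Of the 31-base words of Myd88 8.93% and of Tirap 12.3% occur in other genes. The ratio of Ticam2 to Tirap, chosen after the values were seen, was 0.635, 0.654, 0.711 and 0.726 with LPS and 3.10, 2.68, 2.90 and 2.88 with LPS + UDCA. Pik3ap1, which encodes the adaptor BCAP that links TLRs to PI3-kinase, rose (log2 fold change 0.54), and Sarm1 was under 1 TPM in every library. Of the 6 adaptor genes, 5 were tested, of which 3 were higher and 2 lower past the FDR. With the fold change minimum 1 was called higher, as were 8.71% of all genes tested. The median log2 fold change of the adaptor genes was 0.54, and 0.33 when all genes above 0 TPM were kept, which adds Sarm1.

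Among the genes whose products fold TLRs or serve them in endosomes, the chaperone transcript Hsp90b1 rose and the protease transcripts fell. Hsp90b1, which encodes the ER chaperone gp96 needed for the folding of most TLRs, had 276.12, 235.03, 227.08 and 255.72 TPM under LPS and 581.19, 623.44, 658.43 and 718.53 TPM under LPS + UDCA. It was called higher (log2 fold change 1.37, SE 0.077, limma adjusted p = 4.2e-07). Its partner Cnpy3 rose by less than 2-fold (0.56), while Cnpy4 fell (-0.84). Unc93b1, which escorts TLR3, TLR7, TLR9 and TLR13 to endosomes, had 172 ± 5.09 and 195 ± 14.2 TPM (log2 fold change 0.18, limma adjusted p = 0.011).

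Transcripts of the 4 lysosomal proteases of the list, which trim endosomal TLRs, fell. Lgmn, the asparagine endopeptidase, went from 232 ± 2.10 to 80.7 ± 2.51 TPM (log2 fold change -1.51, SE 0.033, limma adjusted p = 1.7e-09), and Ctsb, Ctsl and Ctss had log2 fold changes of -0.71, -0.71 and -0.82. Slc15a3, which encodes a lysosomal peptide transporter, also fell (-0.91). Slc15a4, its relative, varied within both groups, from 24.18 to 124.68 TPM under LPS and from 34.21 to 111.02 TPM under LPS + UDCA, and did not pass (limma adjusted p = 0.91). Over the 10 genes of the list, 3 were higher and 6 lower past the FDR, and the median log2 fold change was -0.71. With the fold change minimum 1 was called in each direction, where 8.71% of all genes tested were called higher and 8.44% lower. Reads of several of these genes could be shared, since 28.2% of the 31-base words of Ctsl, 27.6% of Slc15a3, 13.0% of Ctsb and 12.3% of Hsp90b1 occur in other genes.

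LPS handling and accessory genes were lower where they passed. Of 8 such genes 6 were tested, and 4 of these were lower past the FDR from limma and none was called at the fold change minimum. The median log2 fold change was -0.54, and -0.35 when all genes above 0 TPM were kept, and all 6 values of the tested genes were negative. Cd180, which encodes RP105, a TLR4 relative without a TIR domain, fell from 21.1 ± 2.08 to 10.1 ± 0.751 TPM (log2 fold change -0.99, SE 0.082, limma adjusted p = 4.9e-06). This was just under the fold change minimum, which applies to TPM + 1, although the mean TPM of Cd180 was 2.09-fold lower. Its partner Ly86, a relative of Ly96 named here after the values were seen, had 18.5 ± 2.62 and 13.1 ± 1.33 TPM (log2 fold change -0.46, limma adjusted p = 0.0034), in contrast to Ly96.

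Downstream of the adaptors, the list of kinases and ubiquitin enzymes held 18 genes, all tested, of which 10 were higher and 6 lower past the FDR (median log2 fold change 0.31). With the fold change minimum, 3 were called higher and 1 lower, where 8.71% and 8.44% of all genes tested were. Traf6, the ubiquitin ligase that relays the MyD88 branch, rose from 4.25 ± 0.458 to 11.4 ± 0.730 TPM (log2 fold change 1.24), and Tab2, its link to the kinase TAK1, from 12.6 ± 0.856 to 28.5 ± 1.93 TPM (1.12). Of the kinase genes of that branch, named here after the values were seen, Irak1 (0.66) and Irak4 (0.37) were higher past the FDR and Irak2 (-0.24) lower. The genes of the MyD88 branch thus went both ways. Ikbkg, which encodes the IKK subunit NEMO, had the highest log2 fold change of the list (1.80). Its exons overlap those of G6pdx on the other strand, and G6pdx went the other way (-0.84). Whether the counting used strand is not given in the sources used here, and without strand, reads of the overlap cannot be told apart. Ikbke, which encodes the kinase IKKε, fell from 26.6 ± 2.38 to 12.4 ± 1.80 TPM (-1.05).

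Negative regulators of TLR signaling were mostly lower, 9 of 13 past the FDR against 3 higher, with a median log2 fold change of -0.56. Dok3, an adaptor that restrains macrophage activation, fell from 94.2 ± 1.25 to 41.4 ± 5.70 TPM (log2 fold change -1.18), and Inpp5d, the phosphatase SHIP1, from 68.1 ± 9.37 to 31.6 ± 4.11 TPM (-1.08). Rnf216, a ubiquitin ligase that targets TLRs, was the gene called higher (1.04). Counts past the FDR and medians of the lists stand beside 40.2% higher, 32.3% lower and a median of 0.082 over all genes tested. Counts called with the fold change minimum stand beside 8.71% higher and 8.44% lower, and no list was tested as a set.

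**Figure D4:**
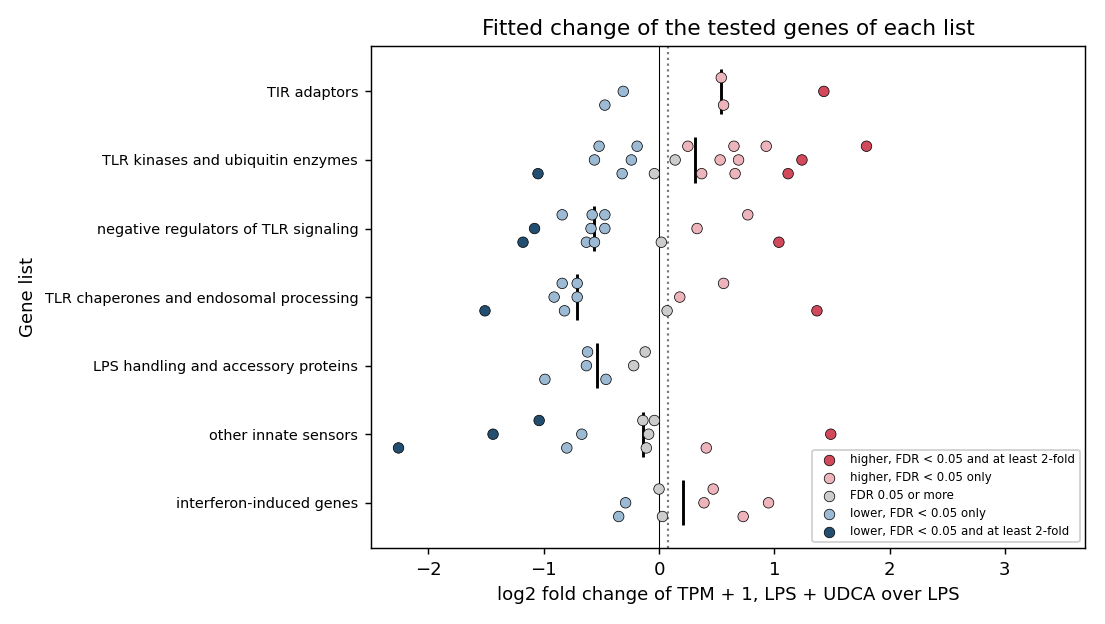
Log2 fold change of TPM + 1, LPS + UDCA over LPS, for each tested gene of 7 lists around the receptors, coloured by the result from limma, with black bars for list medians and a dotted line at the median of all genes tested (0.082). Negative regulators and endosomal processing genes lie mostly to the left, with medians of -0.56 and -0.71, and adaptors and kinases lie on both sides, with medians of 0.54 and 0.31.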

How the data were processed

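RNA of 8 J774A.1 libraries, 4 with LPS and 4 with LPS + UDCA, was measured by sequencing. The authors deposited 1 table of TPM values, stored to 2 decimals, and the submitters' processing notes name Bowtie 0.12.2 and mm10 (GRCm38). The program that counted reads, its use of strand and the depth are not given in the sources used here. Groups were taken from the sample titles.

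Values were set to log2(TPM + 1), genes whose mean reached 1 TPM were kept (11796 of 55487), and the groups were compared with limma 3.58.1 in R 4.3.3 (lmFit, eBayes with a variance trend) and Benjamini-Hochberg adjustment over all genes tested. A gene was called where TPM + 1 differed 2-fold or more with an FDR below 0.05. The procedure was tested on simulated data, with changes put only on genes above a set level. Tlr4, Tlr7, Tlr9 and Tlr13 lay below that level, so the simulation does not cover them. Single values were compared by a 2-sided exact permutation test over 70 arrangements. No 2 libraries were identical in the 28 pairs.

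The members and gene lists were chosen with earlier results of these data known. Named were all members, the other TLRs, the called genes of each list (beyond 6, the 3 highest and 3 lowest; where none was called, the gene with the largest change), all tested adaptors and chaperones, and the 3 nearest profiles for Tlr4, Cd14 and Ly96. Coordinates are from GENCODE M21 on GRCm38, and promoter windows (250 bases before to 50 after the start) from RefSeq. Alternatives were median-of-ratios scaling, quantile normalization, 2 other filters, a pseudocount of 0.1, no variance trend, no fold change minimum, a replicate block and leaving out each library.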

Additional observations from a re-analysis of the deposited data

Results flagged for a closer look

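In 11 of 174 groups of 4 values examined, the highest or lowest library lay far from the other 3 by Dixon's criterion, and chance alone gives about 8.7 (1 in 20 groups). Among the members this held for Ly96, with 35.34 TPM in LPS + UDCA replicate 4 and 32.45 to 32.72 TPM in the others of its group. Slc15a4 had 111.0 TPM in LPS + UDCA replicate 3 and 34.21 to 39.62 TPM in the others. Lgmn was at 235.1 TPM in LPS replicate 2 against 230.6 to 231.3 TPM. Ticam1 was at 28.3 TPM in LPS replicate 3 against 29.93 to 30.16 TPM, and Traf6 in the same library at 3.57 TPM against 4.42 to 4.58 TPM. Pik3ap1 had 138.7 TPM in LPS + UDCA replicate 2 against 125.3 to 127.1 TPM, and Zbp1 in that library 4.67 TPM against 2.0 to 2.29 TPM. Irak2, which encodes a kinase of the MyD88 branch, had 44.3 TPM in LPS replicate 1 against 34.02 to 35.35 TPM, and Isg15, an interferon-induced gene, had 161.9 TPM there against 168.2 to 168.8 TPM. Tnfaip3, which encodes the inhibitor A20, had 23.55 TPM in LPS + UDCA replicate 3 against 21.42 to 21.73 TPM. Casp4 had 87.4 TPM in LPS + UDCA replicate 4 against 66.83 to 69.96 TPM.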

How the results depend on the processing

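The calls for Tlr2 and the direction of each of the 9 tested genes held in every alternative run in which the gene was tested. Of the genes called higher, 2 became 0 with median-of-ratios scaling and 0 with quantile normalization, and 0 to 2 when each library was left out, since Ly96 and Tlr6 lie close to the fold change minimum. Of the genes called lower, 2 became 1 when 1 TPM was required in every library, because that filter removes Tlr13. Tlr7 passed the FDR from limma with median-of-ratios scaling (-0.39, adjusted p = 0.028) and quantile normalization (-0.42, adjusted p = 0.023), and ran from -0.40 to -0.19 when each library was left out. Tlr9 did not pass with median-of-ratios scaling (0.14, limma adjusted p = 0.11), quantile normalization (0.12, adjusted p = 0.15), all genes above 0 TPM (0.23, adjusted p = 0.052) or the replicate block (0.23, adjusted p = 0.057), and ran from 0.20 to 0.26 when each library was left out. The cause was not tested. Over all genes, 4741 were higher and 3807 lower without the fold change minimum, against 1028 and 995 with it. Median-of-ratios scaling moved the median of all genes from 0.082 to -0.018 and the share of calls that were higher from 50.8% to 40.8% (808 higher and 1171 lower). It also moved list medians, to 0.43 for the adaptors, 0.21 for the kinases, -0.66 for the negative regulators, -0.82 for the chaperones and processing genes and -0.64 for LPS handling.

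With the replicate number as a block, 1034 genes were called higher and 1000 lower. Libraries of the same number had deviations correlated at -0.035 to 0.15 (4 pairs) and the others at -0.14 to 0.16 (12 pairs), so not every same-numbered pair was correlated above 0.1 and the numbers were not taken to pair the samples. As a hint from the data and not the design, 5 of 8 libraries correlated best with their own number. Depth is unknown, and values near 0.02 TPM cannot be told from 0.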

Other observations

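Beside the TLRs, other innate sensors were also listed. Of 14 genes 11 were tested, of which 2 were higher and 5 lower past the FDR from limma (median log2 fold change -0.14, and 0.082 over all genes tested). Of all genes tested, 40.2% were higher and 32.3% lower past the FDR. With median-of-ratios scaling the median of the list was -0.24 and that of all genes -0.018. Sting1, the adaptor of cytosolic DNA sensing, had 21.16, 22.06, 23.18 and 25.39 TPM under LPS and 6.20, 3.73, 4.25 and 2.48 TPM under LPS + UDCA (log2 fold change -2.26, limma adjusted p = 5.1e-06). Cgas, the DNA sensor itself, went from 10.7 ± 1.48 to 3.29 ± 0.145 TPM (-1.44), and Zbp1, a sensor of Z-form nucleic acids, had a log2 fold change of -1.04. Casp4, which encodes caspase-11, the cytosolic sensor of LPS, rose from 25.1 ± 2.33 to 72.8 ± 9.80 TPM (log2 fold change 1.49, limma adjusted p = 1e-06).

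Of 10 interferon-induced genes 8 were tested, with 4 higher and 2 lower past the FDR from limma, where 40.2% and 32.3% of all genes tested were. None of the 8 was called at the fold change minimum. Their median log2 fold change was 0.21, but -0.06 with median-of-ratios scaling and -0.02 without LPS + UDCA replicate 4, so no direction is given for the list. Ccl5, a chemokine induced through the TRIF branch, went from 338 ± 15 to 656 ± 17.3 TPM and had the largest log2 fold change of TPM + 1 among the tested genes of the list (0.95, limma adjusted p = 5.2e-08). Cxcl10 (-0.35) and Irf7 (-0.29), named here after the values were seen, were the 2 lower past the FDR.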
